A study of Tachysurus fulvidraco x Tachysurus vachelli with 6 samples.

Results

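The 6 genes described here take part in making, desaturating and lengthening fatty acids in the liver of hybrid yellow catfish: the fatty acid synthase gene fasn, the Delta9 desaturase gene LOC113636202 (deposited as stearoyl-CoA desaturase 1), the front-end desaturase gene fads2, its neighbour LOC113660036 (deposited as fatty acid desaturase 2-like), and the elongase genes elovl2 and LOC113652078 (described as like elovl6). They are 6 of 28288 genes in the table, and all 6 were among the 11521 genes that were tested, those whose FPKM (a fragment count corrected for transcript length and for the number of mapped reads) averaged 1 or more. They were chosen by their lower transcript levels in T_liver than in C_liver and by their joint variation over the 6 libraries. Their differences between the groups and their correlations are therefore given as a description, with no test.

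The T_liver group was fed a diet with 4 g/kg Acanthopanax senticosus, a medicinal shrub, and the C_liver group a diet with 0 g/kg, both for 8 weeks. All fish were hybrids of Tachysurus fulvidraco and Pseudobagrus vachellii, and all were starved before sampling. Liver mRNA was sequenced in 3 libraries per group. Each group was kept in 3 tanks, and the methods describe 3 fish picked at random per tank for sequencing. They describe RNA of each group as mixed before library preparation, and give no number of fish per library. The replicates are thus libraries, and any p-value measures only the spread between them.

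Fatty acid synthase builds palmitate from acetyl-CoA and malonyl-CoA, with NADPH as the reductant. Stearoyl-CoA desaturase places a double bond in the saturated products and gives monounsaturated fatty acids such as oleate. In a second branch, diet-derived linoleic and alpha-linolenic acid are converted to long-chain polyunsaturated fatty acids by turns of front-end desaturation and elongation, and fish liver is a main site of this conversion.

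The deposited counts summed to 44153673 to 51459627 per library, and a library's 20 most abundant genes took 25.3 to 32.9% of its counts, with the highest share in C_liver replicate 3. The 12 hepatocyte markers that were matched in the table were all among the tested genes. Their summed level was 50978 to 85191 CPM (counts per 1000000 counts of the library, after TMM scaling) in T_liver and 54639 to 65255 CPM in C_liver. Exocrine pancreas markers summed to 359 to 1143 CPM in T_liver, against 76.0 to 386 CPM in C_liver. Of 21 tested, 15 met the criteria for differentially expressed (DE) genes at higher levels in T_liver, as did 172 of all 11521 tested genes. Red blood cell markers summed to 447 to 2740 CPM in T_liver and 800.4 to 4372 CPM in C_liver, where the highest sum was again that of C_liver replicate 3. Skeletal muscle markers summed to at most 0.382 CPM, with 5 of 7 at 0 in every library. The part of these other cells in the levels given next was not tested. In bulk liver RNA, fewer cells of a type and less RNA per cell cannot be told apart.

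A gene was called a DE gene where its log2 fold change was 1 or more in size and its unadjusted P was below 0.05 in the quasi-likelihood test of edgeR. Of the 11521 genes tested, 186 (1.61%) met these criteria at lower levels in T_liver, and 358 (3.11%) met them in either direction. After Benjamini-Hochberg adjustment 0 genes were under 0.05 in edgeR, where the smallest adjusted P was 0.273 and 765 genes had an unadjusted P under 0.05, and 38 genes were under 0.05 in DESeq2. Of the 6 genes, 5 met the criteria, which is fixed by the choice of these genes. By the limit on P, LOC113636202 lay just inside and LOC113660036 just outside. This places them by the rule and is no test of genes chosen on this contrast. The calls with single libraries left out use the same values and are likewise no test. With single libraries left out, fasn and LOC113652078 met the criteria each time. LOC113636202 did not without T_liver replicate 1, T_liver replicate 2 or C_liver replicate 3, nor did fads2 without any of these or C_liver replicate 2. The gene elovl2 did not without T_liver replicate 1 or C_liver replicate 3, and LOC113660036 met them only without C_liver replicate 1. In 4 of the 6 genes every T_liver library was below every C_liver library, an arrangement found in 818 of all tested genes (7.10%).

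**Figure D1:**
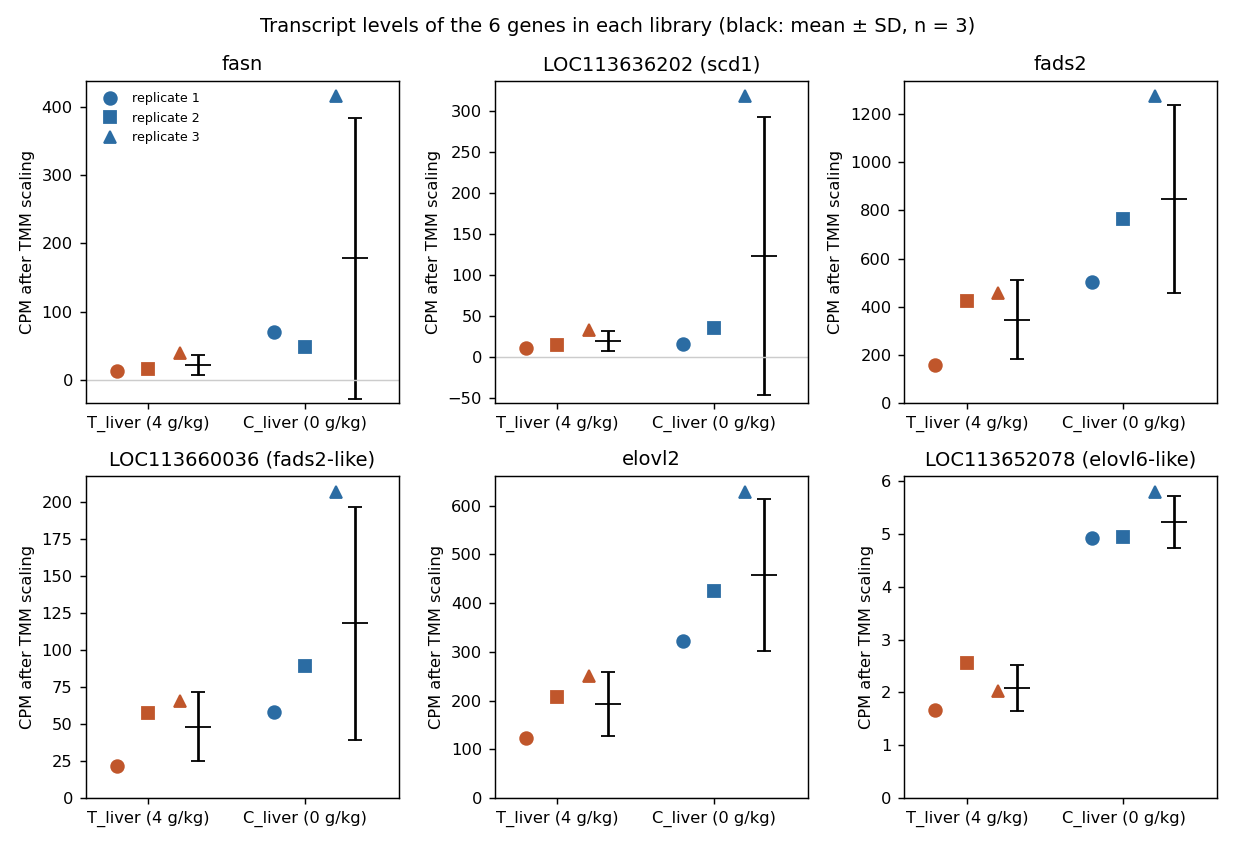
Transcript levels of the 6 genes in CPM after TMM scaling, 1 panel per gene with its own vertical scale, with the 3 T_liver libraries left of the 3 C_liver libraries, symbols for the replicate number and black bars for the mean ± SD (n = 3). In fasn and LOC113636202 the C_liver bar is set by replicate 3 (415.5 and 318.6 CPM), whereas the groups of LOC113652078 lie far apart on a low scale (1.67 to 2.55 CPM in T_liver, 4.93 to 5.80 CPM in C_liver).

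The fatty acid synthase gene fasn had 12.7, 15.4 and 39.3 CPM in T_liver replicates 1, 2 and 3, against 70.7, 48.3 and 415.5 CPM in C_liver replicates 1, 2 and 3. All 3 T_liver libraries were below all 3 C_liver libraries, and C_liver replicate 3 stood far above every other library. The group means were 22.5 ± 14.6 CPM in T_liver and 178 ± 206 CPM in C_liver (SD, n = 3 each), so the spread within C_liver was larger than its mean. The fitted log2 fold change was -2.99 (SE 0.91). C_liver replicate 3 held 6.99 times the mean of the other C_liver libraries, and without it the log2 fold change was -1.39. The gene lies on the minus strand of scaffold NW_020848090.1, from 2189420 to 2210651, with 3 transcript models.

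The Delta9 desaturase gene LOC113636202 had 11.2, 14.5 and 33.8 CPM in T_liver, against 16.0, 35.3 and 318.6 CPM in C_liver. The groups overlapped, since C_liver replicate 1 was below T_liver replicate 3, and the other T_liver and C_liver libraries differed little beside the gap to C_liver replicate 3. The means were 19.8 ± 12.2 CPM in T_liver and 123 ± 169 CPM in C_liver (SD, n = 3 each), with a log2 fold change of -2.63 (SE 1.1). C_liver replicate 3 held 12.4 times the mean of the other C_liver libraries, the most of the 6 genes, and without it the log2 fold change was -0.35. The gene lies on the minus strand of scaffold NW_020847775.1, from 143618 to 147931.

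The front-end desaturase gene fads2, whose product places double bonds nearer the carboxyl end of polyunsaturated chains, had 156, 423 and 456 CPM in T_liver, against 504, 763 and 1275 CPM in C_liver. The groups did not overlap, but T_liver replicate 3 and C_liver replicate 1 lay close together, and T_liver replicate 1 was far below the rest. The means were 345 ± 164 CPM in T_liver and 847 ± 392 CPM in C_liver (SD, n = 3 each), with a log2 fold change of -1.30 (SE 0.51). The fold rested on both ends of the range, being -0.87 without C_liver replicate 3 and -0.93 without T_liver replicate 1.

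LOC113660036, the fads2-like neighbour, had 21.6, 57.2 and 65.6 CPM in T_liver, against 57.9, 89.0 and 207 CPM in C_liver. It ranked the libraries almost as fads2 did, except that C_liver replicate 1 lay between T_liver replicates 2 and 3, so that its groups overlapped. The means were 48.1 ± 23.4 CPM in T_liver and 118 ± 78.7 CPM in C_liver (SD, n = 3 each), and the log2 fold change was -1.29 (SE 0.58), or -0.60 without C_liver replicate 3. Both genes lie on the plus strand of scaffold NW_020848036.1, fads2 from 7259031 to 7266991 and LOC113660036 from 7268424 to 7282294, with a gap of 1432 bp. They carry the same KEGG orthology number, K10226, and how reads that match both genes were counted is not given in the sources used here.

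On the FPKM scale, which takes transcript length into account, fads2 was 6.65, 6.80 and 6.38 times as high as LOC113660036 in T_liver, and 8.00, 7.88 and 5.65 times as high in C_liver. This ratio varied by a factor of 1.41 over the 6 libraries, while fads2 itself varied by a factor of 8.16 on the CPM scale. The next tested genes on the scaffold differed less between the groups than this pair did, but those upstream lie far from it. Upstream, pidd1, 175445 bp from fads2, had a log2 fold change of 0.07 (SE 0.32). The mitochondrial glutamate carrier gene slc25a22, 151641 bp from fads2, had -0.29 (SE 0.30). Downstream, eps8l2 had -0.30 (SE 0.26). It lies from 7281789 to 7309479 on the opposite strand and overlaps the end of LOC113660036, and whether counting used strand is not given in the sources used here.

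The elongase gene elovl2, whose product lengthens polyunsaturated chains between the desaturation steps, had 122, 207 and 251 CPM in T_liver, against 322, 424 and 629 CPM in C_liver. The groups did not overlap, and the order of the libraries was that of fads2. The means were 193 ± 65.2 CPM in T_liver and 459 ± 156 CPM in C_liver (SD, n = 3 each), with a log2 fold change of -1.25 (SE 0.39). Leaving out single libraries gave -1.48 to -0.94. The gene lies on the plus strand of scaffold NW_020847769.1, from 4540268 to 4557526.

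LOC113652078, described as like elovl6, which lengthens saturated and monounsaturated chains, was the lowest of the 6 genes on the CPM scale. On the FPKM scale it was above fasn in T_liver replicates 1 and 2 and in C_liver replicate 2. It had 1.67, 2.55 and 2.03 CPM in T_liver, against 4.93, 4.95 and 5.80 CPM in C_liver, from 70 to 116 counts per T_liver library and 230 to 272 counts per C_liver library. The groups were well apart, with a small spread on both sides. The means were 2.08 ± 0.443 CPM in T_liver and 5.23 ± 0.499 CPM in C_liver (SD, n = 3 each), and the log2 fold change of -1.33 (SE 0.32) had the smallest SE of the 6. C_liver replicate 3 held only 1.17 times the mean of the other C_liver libraries, and leaving out single libraries gave -1.48 to -1.18. The gene lies on the minus strand of scaffold NW_020847921.1, from 424778 to 431470.

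The elovl6 gene itself, set beside LOC113652078 after its values were seen, had 39.4, 25.2 and 65.4 CPM in T_liver, against 15.0, 46.7 and 70.1 CPM in C_liver. Its groups overlapped over most of their range, with a log2 fold change of -0.02 (SE 0.57, unadjusted P 0.974, adjusted P 0.996, edgeR). Per length, LOC113652078 was at 0.0622 to 0.203 of the elovl6 level in T_liver and at 0.166 to 0.662 of it in C_liver.

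The order of the 6 genes by FPKM was led by fads2 and elovl2 in both groups. In T_liver, fads2 averaged 123 FPKM, elovl2 92.9, LOC113660036 18.8, LOC113636202 16.2, fasn 2.43 and LOC113652078 2.15. In C_liver, fads2 averaged 289 FPKM, elovl2 213, LOC113636202 85.7, LOC113660036 43.0, fasn 16.8 and LOC113652078 5.46. The libraries of neighbours in this order did not overlap only between elovl2 and LOC113660036 and between LOC113636202 and fasn, both in T_liver. In C_liver the libraries of all 5 neighbouring pairs overlapped. Compared within the same library, fads2 was above elovl2, elovl2 above LOC113636202 and LOC113660036 above fasn in all 3 C_liver libraries. LOC113636202 was above LOC113660036 in 1 C_liver library, and fasn above LOC113652078 in 2. The place of LOC113636202 above LOC113660036 in C_liver came from replicate 3 alone, where it had 213.9 FPKM against 13.9 and 29.3 FPKM in replicates 1 and 2.

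**Figure D2:**
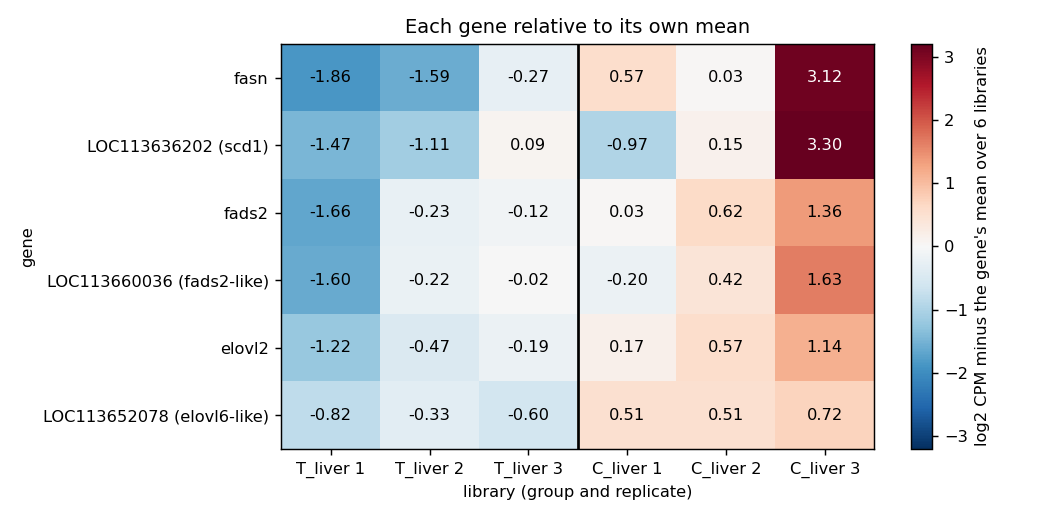
Level of each gene in each library as log2 CPM minus that gene's mean over the 6 libraries, with T_liver left of C_liver (red above the mean, blue below). T_liver replicate 1 is the lowest library and C_liver replicate 3 the highest in every row, with 3.12 for fasn and 3.30 for LOC113636202 in C_liver replicate 3, against 0.72 for LOC113652078.

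The 6 genes shared the ends of their range, which is a description of genes chosen partly by their joint variation over these libraries. On the scaled CPM, each was lowest in T_liver replicate 1 and highest in C_liver replicate 3. On the FPKM scale, which is without TMM scaling, this held for 5 genes, while LOC113652078 was highest in C_liver replicate 1, with 5.70, 5.48 and 5.19 FPKM in C_liver replicates 1, 2 and 3. The width of the range differed among the genes. The highest library held 32.7 times the lowest for fasn, 28.5 times for LOC113636202, 9.60 times for LOC113660036, 8.16 times for fads2, 5.14 times for elovl2 and 3.47 times for LOC113652078. C_liver replicate 3 was also the library with the highest red blood cell marker sum. The exocrine pancreas marker sum was highest in T_liver replicate 1 (1143 CPM), where the 6 genes were lowest. Within C_liver it was highest in replicate 3 (386 CPM). The part of both in these levels was not tested.

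Over the 6 libraries, the Pearson r of log2 CPM between the 15 pairs was 0.60 to 0.98, with a median of 0.88. These r values describe 6 points that share libraries, depth and the group difference by which the genes were chosen. The closest were fads2 with LOC113660036 (r = 0.98, rho = 0.94), fads2 with elovl2 (r = 0.98, rho = 1.00) and LOC113660036 with elovl2 (r = 0.95, rho = 0.94). These 3 genes of the polyunsaturated branch kept r values of 0.98 to 0.99 after the group means were subtracted, and 0.78 to 0.94 without C_liver replicate 3 and T_liver replicate 1. Per length, fads2 was 0.949 to 1.52 times the level of elovl2 in T_liver and 1.16 to 1.51 times in C_liver.

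The pair fasn and LOC113636202 had an r of 0.91, and 0.92 after the group means were subtracted. It was 0.33 without C_liver replicate 3 and T_liver replicate 1 together. Leaving out single libraries gave 0.60 for C_liver replicate 3, 0.89 for T_liver replicate 1 and 0.998 for C_liver replicate 1. Of the single libraries, this relation thus rested most on C_liver replicate 3. Per length, fasn was at 0.150, 0.141 and 0.154 of the LOC113636202 level in T_liver, and at 0.583, 0.181 and 0.173 of it in C_liver. The library that left the common ratio was C_liver replicate 1, in which fasn was above and LOC113636202 below the level of C_liver replicate 2. The lowest r was that of LOC113636202 with LOC113652078 (r = 0.60, rho = 0.83), which was -0.06 without C_liver replicate 3 and T_liver replicate 1. Between the branches, fads2 was 39.5 to 93.5 times as high as fasn per length in T_liver and 10.4 to 53.9 times as high in C_liver.

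**Figure D3:**
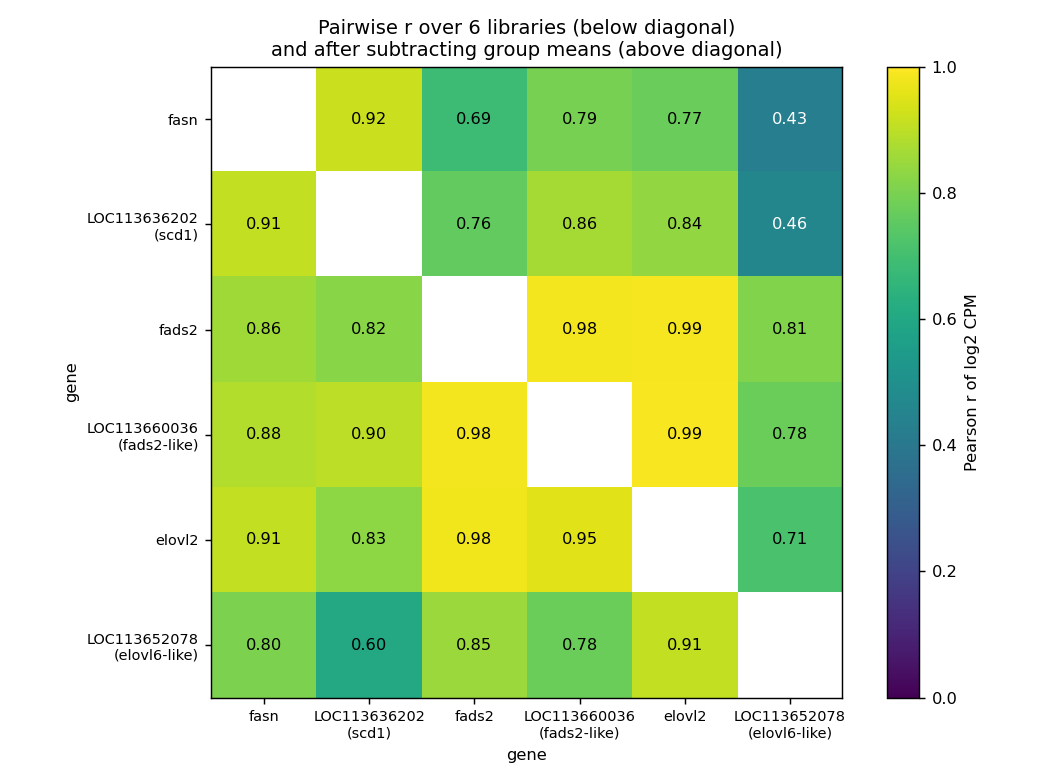
Pearson r of log2 CPM between each pair of the 6 genes over the 6 libraries (below the diagonal) and after subtraction of the group means (above the diagonal). The block of fads2, LOC113660036 and elovl2 holds values of 0.95 to 0.99 on both sides, while LOC113652078 with fasn has 0.80 below and 0.43 above the diagonal.

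As a background, the median r of each of the 6 genes with the other tested genes was between -0.02 and 0.02, and 1.49 to 2.14% of these genes had an r of at least 0.9 with it. With the mean standardized profile of the 6 genes, 209 of 11515 other genes (1.82%) had an r of at least 0.9. The most alike were LOC113657616 (ATP-binding cassette sub-family F member 2-like, r = 0.99) and tmem97, a transmembrane protein gene (r = 0.99), followed by ak4, cunh14orf119, LOC113641797, esd, rap2c, smap2, LOC113637170 and LOC113635119. Of these 10 genes, tmem97 and LOC113635119 also met the DE criteria, which is a description, since they were picked on the same libraries. LOC113635119, described as liver expressed antimicrobial peptide 2, had 0, 0.704 and 1.00 CPM in T_liver, against 4.84, 8.48 and 57.7 CPM in C_liver. After subtraction of the group means, the most alike were ss18, atic, LOC113660807, LOC113641237 and coro1c. Over the 6 libraries without this subtraction, their r was 0.88, -0.03, 0.29, 0.94 and 0.87 in this order. Without C_liver replicate 3 and T_liver replicate 1 it was -0.52, -0.84, -0.85, 0.22 and -0.19. Their log2 fold changes were -0.22, 0.38, 0.41, -1.22 and -0.33.

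Other genes of fatty acid synthesis supply the substrates of fasn. Of 17 tested in this list, 2 were DE genes at lower levels in T_liver, against 1.61% of all tested genes, and 0 at higher levels. The median log2 fold change was -0.30, against a median of -0.005 over all tested genes, of which 50.4% were below 0. Without C_liver replicate 3 the median of this list was -0.01, with 9 genes below 0, and the median of all tested genes was 0.01. LOC113662180, an ATP-citrate synthase gene that releases cytosolic acetyl-CoA from citrate, had 18.9, 10.8 and 36.0 CPM in T_liver, against 39.9, 39.1 and 111 CPM in C_liver, with a log2 fold change of -1.53 (SE 0.58, unadjusted P 0.0314, adjusted P 0.676, edgeR). LOC113645343, described as a cytoplasmic acetyl-coenzyme A synthetase, had 43.3, 25.9 and 67.7 CPM in T_liver, against 68.7, 87.6 and 253 CPM in C_liver, with a log2 fold change of -1.58 (SE 0.58, unadjusted P 0.0289, adjusted P 0.676, edgeR). In both genes the groups did not overlap and C_liver replicate 3 was highest. Leaving it out gave log2 fold changes of -0.84 for LOC113662180 and -0.76 for LOC113645343, and neither was a DE gene then. A second acetyl-CoA synthetase gene of the list, acss2, added after its values were seen, had a log2 fold change of -0.38 (SE 0.27, unadjusted P 0.193, adjusted P 0.725, edgeR). The second ATP-citrate synthase gene, acly, added after its values were seen, had 25, 28.3 and 32.0 CPM in T_liver, against 23.7, 38.2 and 170 CPM in C_liver, and its groups overlapped, with a log2 fold change of -1.44 with C_liver replicate 3 (SE 0.69, unadjusted P 0.0737, adjusted P 0.676, edgeR) and -0.12 without it.

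The gene before fasn in the path, acaca, encodes acetyl-CoA carboxylase, which makes malonyl-CoA. It had 179, 423 and 993 CPM in T_liver, against 484, 599 and 442 CPM in C_liver, with a log2 fold change of 0.07 (SE 0.57, unadjusted P 0.912, adjusted P 0.979, edgeR). It did not share the high level of C_liver replicate 3. Per length, acaca was 15.1, 29.6 and 27.2 times as high as fasn in T_liver, and 7.37, 13.4 and 1.14 times as high in C_liver. LOC113641836, a mid1-interacting protein gene, whose mammalian relative promotes the assembly of acetyl-CoA carboxylase, had 42.9, 16.8 and 235 CPM in T_liver, against 15.7, 22.4 and 1044 CPM in C_liver. Its C_liver replicates 1 and 2 were among the lowest libraries, and the log2 fold change was -1.88 with C_liver replicate 3 (SE 1.65, unadjusted P 0.290, adjusted P 0.772, edgeR) and 2.39 without it.

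Among the 5 other tested genes of the desaturase list, 1 was a DE gene at a lower level in T_liver, against 1.61% of all tested genes. The median log2 fold change was -0.78, or -0.26 without C_liver replicate 3, where 3 of the 5 were below 0 and 0 were DE genes. The called gene was LOC113635677, described as an NADH-cytochrome b5 reductase, an enzyme that passes electrons toward the desaturases. It had 80.6, 80.6 and 161 CPM in T_liver, against 146, 220 and 323 CPM in C_liver, and its groups overlapped, with a log2 fold change of -1.10 (SE 0.42, unadjusted P 0.0338, adjusted P 0.676, edgeR). The other Delta9 desaturase gene described, LOC113639949 (acyl-CoA desaturase), had 33.0, 144 and 50.4 CPM in T_liver, against 75.0, 75.5 and 301 CPM in C_liver. Its groups overlapped, and its log2 fold change of -0.99 (SE 0.74, unadjusted P 0.222, adjusted P 0.740, edgeR) was 0.02 without C_liver replicate 3. Per length, LOC113636202 was at 0.254 to 1.70 times the level of LOC113639949 in T_liver and at 0.541 to 2.68 times in C_liver, a wide spread within both groups.

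In the elongation list, 0 of 9 tested genes were DE genes by edgeR, 0 had an unadjusted P under 0.05, and all 9 had a log2 fold change below 0, with a median of -0.44. Beside the 3.11% of all tested genes that were DE genes, a count of 0 among 9 says little. Without C_liver replicate 3, 7 of the 9 were below 0, with a median of -0.27. The most abundant was elovl5, a second elongase of polyunsaturated chains, with 216, 812 and 646 CPM in T_liver, against 833, 1160 and 1265 CPM in C_liver. Its groups did not overlap, and like the 6 genes it was lowest in T_liver replicate 1 and highest in C_liver replicate 3. Its log2 fold change was -0.96 (SE 0.49, unadjusted P 0.0880, adjusted P 0.676, edgeR). The next, hacd2, a dehydratase gene of the elongation cycle, had a log2 fold change of -0.27 (SE 0.32). Per length, elovl2 was at 0.343 to 0.764 of the elovl5 level in T_liver and at 0.493 to 0.671 of it in C_liver.

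**Figure D4:**
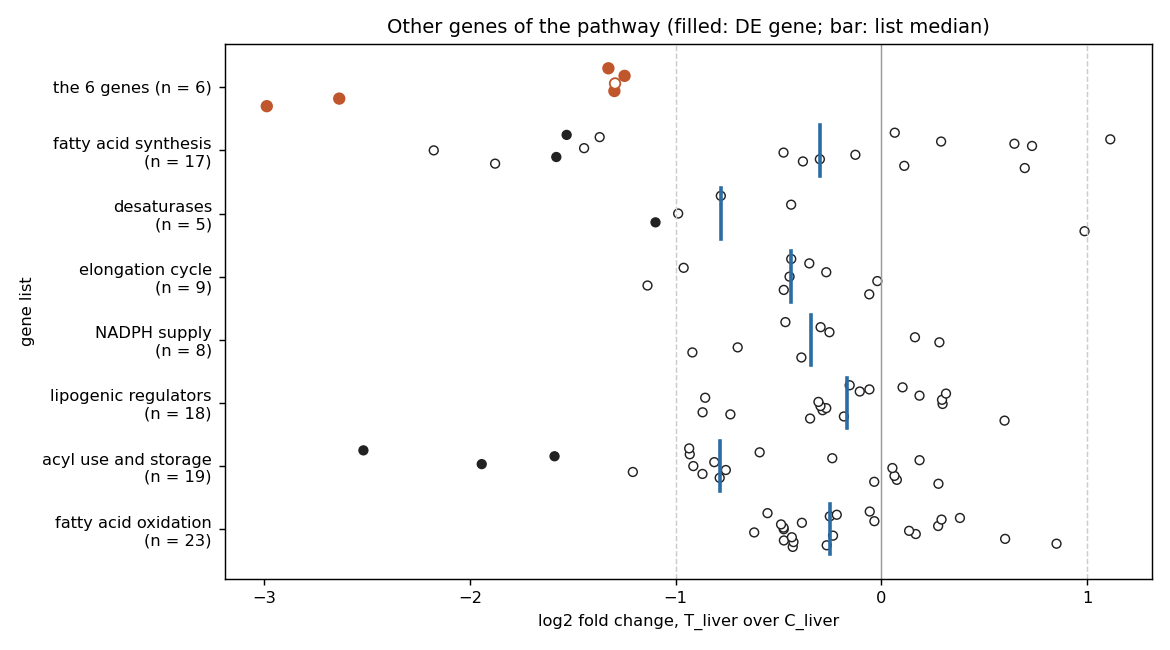
Log2 fold change (T_liver over C_liver) of the 6 genes in the top row and of the other tested genes of 7 lists, with filled points for DE genes, blue bars for the list medians and dashed lines at a log2 fold change of -1 and 1. The 6 filled black points all lie below -1, and the list medians lie between -0.79 (acyl use and storage) and -0.17 (lipogenic regulators).

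In the other lists, 0 of 8 genes of NADPH supply, 0 of 18 lipogenic regulators and 0 of 23 genes of fatty acid oxidation were DE genes by edgeR, while 1, 0 and 2 of them had an unadjusted P under 0.05. With 3.11% of all tested genes called in either direction, counts of 0 in lists this short say little. Genes below 0 were 6 of 8 (median log2 fold change -0.34), 12 of 18 (-0.17) and 16 of 23 (-0.25), against 50.4% of all tested genes. Without C_liver replicate 3 they were 3 of 8 (0.21), 11 of 18 (-0.07) and 13 of 23 (-0.07). The most abundant genes of NADPH supply, taldo1 and h6pd, had log2 fold changes of -0.29 (SE 0.37) and 0.28 (SE 0.41). Those of fatty acid oxidation, scp2 and acadm, had -0.48 (SE 0.44) and 0.60 (SE 0.29). The most abundant regulator genes, LOC113661812 and LOC113641935, both described as sterol regulatory element-binding protein 2, had -0.15 (SE 0.38) and -0.27 (SE 0.37). The regulator gene srebf1, which in mammals drives transcription of lipogenic genes, had 18.1, 97.7 and 55.7 CPM in T_liver, against 110, 68.5 and 107 CPM in C_liver, with overlapping groups and a log2 fold change of -0.73 (SE 0.56, unadjusted P 0.230, adjusted P 0.745, edgeR). LOC113634138, a carbohydrate-responsive element-binding protein-like gene, had 43.8, 46.1 and 41.1 CPM in T_liver, against 19.6, 40.4 and 26.4 CPM in C_liver. All of its T_liver libraries were above its C_liver libraries, by a narrow gap (41.1 against 40.4 CPM). Its log2 fold change was 0.60 (SE 0.30, unadjusted P 0.0826, adjusted P 0.676, edgeR). This direction, opposite to that of the 6 genes, was that of 6 of the 18 regulators. The gene was added after its values were seen.

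The list of acyl use and storage held 3 DE genes at lower levels in T_liver among 19 tested, against 1.61% of all tested genes. Its median log2 fold change was -0.79, or -0.44 without C_liver replicate 3. The gene fabp1, which encodes the liver fatty acid-binding protein, had 155, 87.9 and 119 CPM in T_liver, against 148, 251 and 1674 CPM in C_liver. The gene dbi, which encodes the acyl-CoA-binding protein, had 279, 520 and 408 CPM in T_liver, against 474, 702 and 2453 CPM in C_liver. In both genes the groups overlapped and C_liver replicate 3 stood far above the rest, as in fasn. Their log2 fold changes were -2.52 for fabp1 (SE 0.89, unadjusted P 0.0249, adjusted P 0.676, edgeR) and -1.59 for dbi (SE 0.63, unadjusted P 0.0394, adjusted P 0.676, edgeR). Without C_liver replicate 3 they were -0.72 for fabp1 and -0.54 for dbi, and neither was a DE gene. The third was LOC113646470, a long-chain acyl-CoA ligase gene, with 1.72, 11.7 and 3.31 CPM in T_liver, against 14.2, 20.9 and 29.3 CPM in C_liver, and a log2 fold change of -1.94 (SE 0.69, unadjusted P 0.0247, adjusted P 0.676, edgeR).

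In all, 6 of 99 other tested genes of the 7 lists were DE genes at lower levels in T_liver and 0 at higher levels, and 71 of the 99 had a log2 fold change below 0. By the deposited KEGG assignments, 2 of 70 other tested genes in the pathways of fatty acid biosynthesis, elongation, unsaturated fatty acids and fatty acid metabolism were DE genes at lower levels, LOC113646470 and acoxl, and 47 of the 70 were below 0. Over all 11521 tested genes, 186 (1.61%) were DE genes at lower levels, 172 were DE genes at higher levels and 50.4% were below 0. The gene acoxl, described as an acyl-coenzyme A oxidase-like protein, had 8.33, 1.58 and 5.28 CPM in T_liver, against 19.5, 7.70 and 36.5 CPM in C_liver, with overlapping groups and a log2 fold change of -2.07 (SE 0.72, unadjusted P 0.0230, adjusted P 0.676, edgeR). These counts rested on single libraries. Without T_liver replicate 1, 2 genes of the 7 lists were DE genes at lower levels, and without C_liver replicate 1 there were 10. Without C_liver replicate 3, 0 genes of the 7 lists and 0 of the KEGG pathways were DE genes by edgeR (1 gene of the 7 lists had an unadjusted P under 0.05), while 87 of all tested genes were DE genes at lower and 161 at higher levels in T_liver. The genes below 0 were then 60 of the 99 and 43 of the 70. Among the 7 genes called in the lists or pathways, calls were also lost without T_liver replicate 1 (LOC113635677, LOC113645343, LOC113662180 and dbi), T_liver replicate 2 (the same 4 genes and fabp1), T_liver replicate 3 (LOC113646470, acoxl, dbi and fabp1) and C_liver replicate 2 (LOC113635677). The KEGG count was 6 without T_liver replicate 2 and 4 without C_liver replicate 1. The exocrine pancreas and red blood cell marker sums given above differ between these libraries as well, and their part in these counts was not tested.

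**Figure D5:**
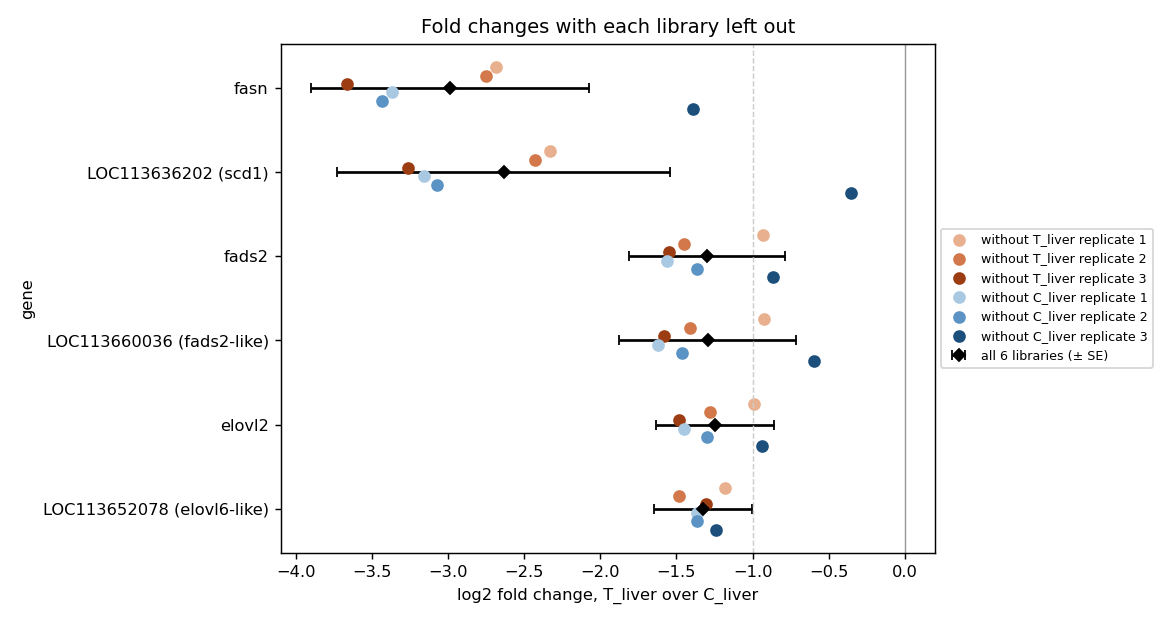
Log2 fold change (T_liver over C_liver) of the 6 genes with all 6 libraries (black diamond, ± SE) and with each library left out (coloured points). Without C_liver replicate 3 the fold change is -0.35 for LOC113636202 and -1.39 for fasn, against -2.63 and -2.99 with all libraries, while LOC113652078 stays between -1.48 and -1.18.

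The direction of the difference did not change in any of the 6 genes when single libraries were left out, but its size did. The unchanged direction is no test, since the genes were chosen by their lower levels in T_liver. In 4 of them the groups did not overlap, so leaving out 1 library could not turn it. The fold changes nearest 0 were those without C_liver replicate 3 for 5 genes and the one without T_liver replicate 1 for LOC113652078. With C_liver replicate 3 and T_liver replicate 1 both left out, a choice made after the values were seen, the log2 fold change was -1.10 for fasn, -0.06 for LOC113636202, -0.51 for fads2, -0.24 for LOC113660036, -0.69 for elovl2 and -1.10 for LOC113652078. The summed level of the 6 genes was 326, 719 and 847 CPM in T_liver, against 976, 1365 and 2851 CPM in C_liver. That these sums do not overlap is only a description, since the genes were chosen by their lower levels in T_liver. Most of the sum was that of fads2 and elovl2.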

How the data were processed

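The authors deposited a table with the counts of reads and the FPKM values of 28288 genes in 6 liver libraries. The counts are whole numbers as deposited, not normalized, and the FPKM values were computed by the authors, who list a gene with no count at 0.0001. Reads were aligned by the authors to the T. fulvidraco genome with HISAT. The submitters' processing notes name HISAT2 2.0, StringTie 1.3.0 and Bowtie 0.12.2. The build is not settled by these sources, and coordinates are as deposited. FPKM values are not corrected for differences in RNA composition, so levels were also given as CPM after TMM scaling (factors 0.856 to 1.13).

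Groups follow the sample titles. Genes averaging 1 FPKM or more were tested on the counts with edgeR 4.0.16 in R 4.3.3 (glmQLFit and glmQLFTest, T_liver over C_liver, no covariate). The same fit was also run on counts simulated from the means and dispersions of these libraries. DE genes had a log2 fold change of 1 or more in size with an unadjusted P below 0.05. Alternatives were DESeq2 1.42.0, total-count scaling, other filters, limma 3.58.1 on log2(FPKM + 1) and log2(FPKM + 0.1), a replicate block and the omission of each library. Pearson r was computed on log2(CPM + 0.5).

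The 6 genes and all lists were chosen with earlier results of these data known. Named beside the 6 genes were the DE genes and the 2 most abundant genes of each list (described where they bear on the 6 genes), the 10 genes most alike in profile, the 5 most alike after subtraction of group means, and the tested genes next to fads2. The genes elovl6, acly, acss2, srebf1 and LOC113634138 were added after their values were seen, as were the trimming of marker lists by gene description and the joint omission of 2 libraries. With 3 libraries per group, an exact permutation test of 1 gene could not go below a two-sided p of 0.1, so none was used. Sequences were not used here.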

Additional observations from a re-analysis of the deposited data

How the results depend on the processing

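The 358 DE genes became 521 in DESeq2, 364 with total-count scaling, 774 without a filter on low values, 174 at a mean FPKM of at least 5, 190 and 302 with limma on log2(FPKM + 1) and log2(FPKM + 0.1), 248 to 643 with single libraries left out (643 without T_liver replicate 2 and 628 without C_liver replicate 2), and 0 at an adjusted P under 0.05. The 6 lower genes of the pathway lists became 10 in DESeq2, 9 without a filter, 0 to 10 with single libraries left out, and 0 at an adjusted P under 0.05. The 2 lower genes of the KEGG pathways became 3 in DESeq2, 4 without a filter, 0 at a mean FPKM of at least 5, 3 with either limma setting, 0 to 6 with single libraries left out, and 0 at an adjusted P under 0.05. The causes were not tested.

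The replicate block gave 329 DE genes, 6 in the pathway lists and 3 in the KEGG pathways, and log2 fold changes of -2.51 for fasn, -1.65 for LOC113636202, -1.72 for fabp1 and -1.24 for dbi, and fabp1 and dbi were then no longer DE genes. Without a block, limma on log2(FPKM + 1) gave -2.05 for fasn, -1.63 for LOC113636202, -1.76 for fabp1 and -1.27 for dbi. On log2(FPKM + 0.1) it gave -2.46, -1.69, -1.77 and -1.28, so smaller sizes were not particular to the block. Same-numbered libraries deviated from their group means with r of -0.11, 0.04 and -0.14, so the numbers were not read as pairs.

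None of the log2 fold changes of the 6 genes turned in sign under the alternatives, which is no test, since the genes were chosen by their lower levels in T_liver. LOC113652078 could not be tested at a mean FPKM of at least 5. With 3 libraries per group and fish per library not stated, the spread between fish is unknown. C_liver replicate 3 decided the sizes for fasn and LOC113636202.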
